A study of Mus musculus with 5 samples.

Results

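The Wnt ligands described here are 10 secreted signalling proteins of the mouse kidney, encoded by Wnt2b, Wnt4, Wnt5a, Wnt5b, Wnt6, Wnt7b, Wnt9a, Wnt9b, Wnt10a and Wnt16. They were taken by gene symbol as a fixed list, and all 10 had a row in both deposited tables of 32793 genes and were among the 15885 genes with enough counts to be tested. Entire embryonic day 15.5 kidneys had been profiled by bulk RNA sequencing, with 2 libraries from NICD_mut kidneys and 3 from NICD_wt kidneys. NICD_mut embryos had the genotype Six2TGC/+ with RosaN1ICD∆PEST, so that Cre made in nephron progenitors switched on an activated Notch1 lacking the PEST domain. The NICD_wt group consisted of littermates that carried RosaN1ICD∆PEST and no Cre. The Cre driver was present in every NICD_mut library and in no NICD_wt library, so what the driver does and what Notch1 does cannot be told apart. Whether each library was a separate animal is not stated in the labels, and p-values therefore measure the spread between these libraries, which may be partly technical.

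Wnt proteins are lipid-modified in the secreting cell, bind Frizzled receptors with LRP or ROR co-receptors on nearby cells, and act through beta-catenin or through beta-catenin-independent routes. In the developing kidney, Wnt9b from the ureteric epithelium signals to the nephron progenitors that cap the ureteric branches, both to keep them renewing and to start their differentiation. Induced progenitors then make Wnt4, which they need to become epithelial. Other ligands come from the collecting duct, such as Wnt7b, which is needed for the medulla to form, and from the stroma.

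Libraries held 17361823 to 21356447 counts. Notch1, from which the transgene derives, averaged 306 ± 25.8 CPM (counts scaled to library size with TMM) in NICD_mut (n = 2, SD), against 130 ± 10.9 CPM in NICD_wt (n = 3, SD). Reads of transgene and endogenous gene are not separated. Skeletal muscle transcripts set one library apart: 10 muscle markers summed to 4661 TPM (length-corrected transcript share as deposited, scaled to the same total in each library) in NICD_mut 1 and 35.2 TPM in NICD_mut 2, against 198 TPM in NICD_wt 1 and 9.38 to 11.7 TPM in the other NICD_wt libraries. The 14 stromal markers also summed higher in NICD_mut 1, at 6125 TPM, than in NICD_mut 2, at 3289 TPM, against 1953 to 2302 TPM in NICD_wt. Red blood cell markers, 10 genes of which 6 rose, summed to 51299.7 to 59509 TPM in NICD_mut and 20688.8 to 26032 TPM in NICD_wt. Results that rest on NICD_mut 1 are given with and without it.

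The ligand set was reshaped at its extremes. Wnt9b fell 10.4-fold, Wnt16 rose 9.06-fold, and Wnt5b rose by a smaller amount, while Wnt5a and Wnt7b fell moderately. In all, 5 of the 10 ligand genes passed edgeR's quasi-likelihood test at a p under 0.05 after Benjamini-Hochberg (BH) adjustment, 2 higher and 3 lower in NICD_mut. Of all tested genes 47.7% passed, 23% higher and 24.8% lower, so the number of ligand genes passing was near the background of this comparison. The groups did not overlap in CPM for 6 of the 10, against 67.2% of all tested genes. Their median log2 fold change was -0.01, and that of all tested genes was 0.01. Without NICD_mut 2, 8 ligand genes passed, 4 higher and 4 lower, in a fit that keeps a single NICD_mut library and in which 48.8% of all tested genes passed. Without NICD_mut 1, the number passing is not read. NICD_mut 2 alone is left, with 0 counts of Wnt10a, whose log2 fold change was then -6.64.

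The promoters of Wnt16 and Wnt9b are shown because these genes had the largest changes in each direction. Each runs from 250 bases before to 50 bases after the annotated start, from RefSeq on GRCm38.p6, with capitals marking CCAAT, the core of the CCAAT box. The Wnt16 window is chr6:22287977-22288276 on the plus strand and the Wnt9b window is chr11:103749772-103750071 on the minus strand.
Wnt16 promoter: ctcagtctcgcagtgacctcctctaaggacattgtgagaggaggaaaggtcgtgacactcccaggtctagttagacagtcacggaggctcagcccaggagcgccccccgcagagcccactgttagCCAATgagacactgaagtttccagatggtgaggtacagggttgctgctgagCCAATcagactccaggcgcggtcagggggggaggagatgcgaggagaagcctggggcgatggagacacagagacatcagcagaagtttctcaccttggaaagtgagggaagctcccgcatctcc
Wnt9b promoter: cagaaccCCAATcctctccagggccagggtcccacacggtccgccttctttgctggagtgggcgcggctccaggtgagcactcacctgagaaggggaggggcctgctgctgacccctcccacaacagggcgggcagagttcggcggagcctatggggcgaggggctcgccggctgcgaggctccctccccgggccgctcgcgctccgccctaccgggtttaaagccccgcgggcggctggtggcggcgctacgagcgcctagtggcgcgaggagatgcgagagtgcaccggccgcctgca

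CCAAT occurred on the gene's strand at positions -125 and -74 of Wnt16 and at -243 of Wnt9b, counted back from the annotated start. On either strand it occurs in 37.4% of the 32851 RefSeq promoters of this length. TGGGAA, the core to which the Notch partner RBPJ binds, was in neither window and is in 25.6% of promoters. The TCF/LEF words CTTTGAT or CTTTGAA or CTTTGTT or CTTTGTA were in neither window and are in 16.9%. No match overlapped another. Of the 10 genes, 7 had an entry in the set of RefSeq promoters used here, and Wnt5a, Wnt7b and Wnt10a had none in it. Wnt5b, with 3 annotated starts, had TGGGAA read on the opposite strand before 1 start and CTTTGAT before another. Wnt9a also had TGGGAA on the opposite strand, at -240.

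Among the ureteric ligands, Wnt9b fell steeply, Wnt7b fell less, and Wnt6 did not pass. Wnt9b (chromosome 11, mm10, 103727364 to 103749821, minus strand) is the ureteric inducer of nephron progenitors. Its level was 1.27 and 1.73 TPM in NICD_mut 1 and 2, against 14.8, 15.1 and 13.1 TPM in NICD_wt 1, 2 and 3. Both NICD_mut libraries were far below all NICD_wt libraries. In counts the libraries held 67 and 91 reads in NICD_mut, against 813, 894 and 627 in NICD_wt. Wnt9b changed by a log2 fold of -3.38 (SE 0.17; BH-adjusted p by edgeR = 2.06e-06), 10.4-fold lower in NICD_mut, which ranked 264 of 15885 by size of change. Leaving out any 1 library gave -3.66 to -3.14, and each of these fits passed.

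Wnt7b (chromosome 15, 85535437 to 85582473, minus strand) is the ligand of the collecting duct trunk. It was at 18.2 and 13.9 TPM in NICD_mut 1 and 2, against 20.95, 24.04 and 19.94 TPM in NICD_wt 1, 2 and 3. The groups did not overlap, although NICD_mut 1 came close to NICD_wt 3. Its log2 fold change was -0.56 (SE 0.12; BH-adjusted p by edgeR = 0.00583). It did not pass by limma on log2(TPM + 1) with no filter (adjusted p = 0.0705) or against a minimum fold of 1.5. An antisense gene, AU022754, overlaps Wnt7b exons and held 5 and 10 counts in NICD_mut, against 4 to 14 in NICD_wt; since the strand setting of the counting is not given, reads of the pair cannot be told apart.

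Wnt6 (chromosome 1, 74771892 to 74785322, plus strand), a ureteric ligand that can induce tubules in isolated kidney mesenchyme, was a low transcript. It was at 3.06 and 3.37 TPM in NICD_mut 1 and 2, against 2.14, 2.72 and 2.89 TPM in NICD_wt 1, 2 and 3. The groups overlapped in CPM and not in TPM. The log2 fold change of its counts was 0.19 (SE 0.28) and it did not pass (BH-adjusted p by edgeR = 0.594). Counts of 50 to 75 reads per library limit what can be detected for this gene.

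**Figure D1:**
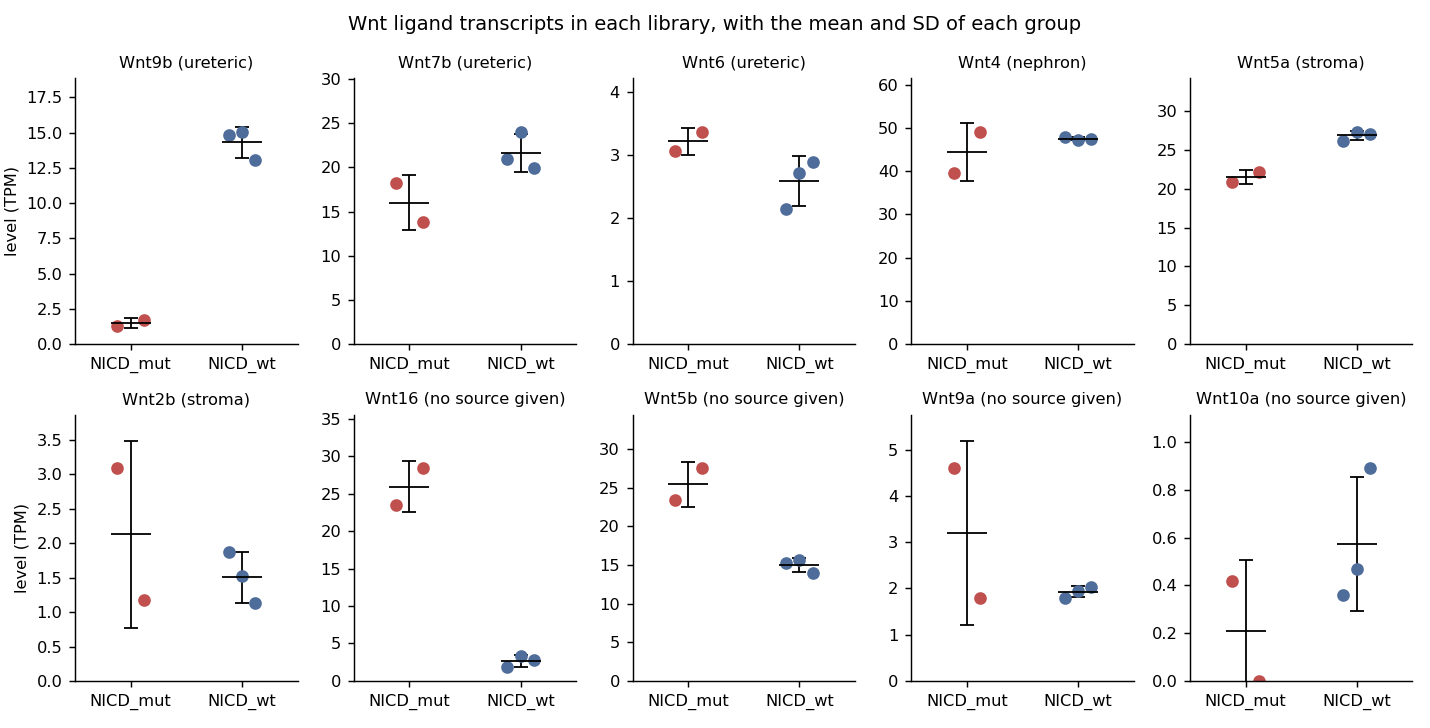
Level in TPM (y axis, starting at 0, with its own scale in each panel) of each Wnt ligand gene in NICD_mut (left, red, n = 2) and NICD_wt (right, blue, n = 3). Points are libraries and bars give the mean and SD; Wnt9b is at 1.27 to 1.73 TPM in NICD_mut and 13.1 to 15.1 TPM in NICD_wt, and Wnt16 is at 23.5 to 28.4 TPM in NICD_mut and 1.83 to 3.36 TPM in NICD_wt.

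Whether ligand genes of the ureteric class and others differed in size of change was compared by the ratio of their CPM in each library, over 6 pairs. With 2 libraries against 3, an exact permutation test cannot go below p = 0.1. The log2 ratio of Wnt9b to Wnt7b was -3.35 and -2.53 in NICD_mut, against -0.05, -0.22 and -0.15 in NICD_wt. Wnt9b and Wnt7b were thus at like CPM in every NICD_wt library and far apart in both NICD_mut libraries. CPM is not corrected for length. In TPM, Wnt7b (19.94 to 24.04) was above Wnt9b (13.07 to 15.08) in NICD_wt as well. The log2 ratio of their CPM differed between the groups by -2.80 (exact two-sided permutation test, p = 0.1, the smallest the design allows; adjusted over the pairs 0.12). The log2 ratio of Wnt9b to Wnt6 differed by -3.56, that of Wnt9b to Wnt4 by -3.13, that of Wnt10a to Wnt6 by -1.80 and that of Wnt7b to Wnt6 by -0.76, each at the same smallest p. That of Wnt7b to Wnt6 was -0.50 without NICD_mut 2. That of Wnt10a to Wnt6 rests on 0 counts of Wnt10a in NICD_mut 2 and the value of 0.1 added to each CPM. It was -3.08 without NICD_mut 1 and -0.51 without NICD_mut 2. Since only NICD_wt 2 and NICD_wt 3 brought Wnt10a past the count filter, no difference is drawn from this pair. The ratio of Wnt5a to Wnt2b differed by -0.66 (exact two-sided permutation test, p = 0.5), and by 0.068 without NICD_mut 1.

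Markers of the ureteric epithelium were lower beside Wnt9b and Wnt7b, and their part in these results was not tested. In whole kidneys, fewer cells of a type and less RNA per cell cannot be told apart. For this and the later marker lists, 23% of all tested genes were higher and 24.8% lower. Of 12 trunk and collecting duct markers, 9 fell, 1 rose and 2 did not pass, with a median log2 fold change of -1.54. The transcription factors Hoxb7 (-1.21, SE 0.09) and Gata3 (-1.51, SE 0.12) of the ureteric lineage fell by less than Wnt9b and by more than Wnt7b. So did the sodium channel subunit Scnn1b (-1.40, SE 0.10). Others lay outside that range: Aqp2 fell by more than Wnt9b (-6.04, SE 1.08), while Krt18 (-0.33) and Trp63 (1.12) did not pass. These differences between genes were not tested. The keratin Krt8 rose by 0.73 (SE 0.11), and without NICD_mut 2 the number that rose was 2. Summed levels of the 12 markers, of which Krt8 was the largest in every library, were 458 to 577 TPM in NICD_mut and 538 to 585 TPM in NICD_wt, and the water channel Aqp2 was at 0 counts in NICD_mut 2. Each of 7 tip markers fell, with a median of -4.12 and summed levels of 29.8 to 43.6 TPM in NICD_mut and 233 to 239 TPM in NICD_wt. Among them Wnt11, the ligand of the ureteric tip, changed by -1.80 (SE 0.09). Of 8 markers of the whole ureteric lineage, some of them also in the trunk or tip lists, 5 fell, 1 rose and 2 did not pass. Their median was -1.36, with Calb1 at -9.09 (6 counts in each NICD_mut library) and Ret at -4.12.

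Wnt4 (chromosome 4, 137277489 to 137299726, plus strand), the ligand of the forming nephron, was the most abundant of the 10 in both groups and did not pass the test. It was at 39.7 and 49.1 TPM in NICD_mut 1 and 2, against 47.9, 47.2 and 47.4 TPM in NICD_wt 1, 2 and 3. In TPM the NICD_wt values lay between those of the NICD_mut libraries, whereas in CPM both NICD_mut libraries (82.3 and 107) were below all NICD_wt libraries (109 to 111). On counts, the log2 fold change was -0.22 (SE 0.10; BH-adjusted p by edgeR = 0.119). Without NICD_mut 2 it was -0.43 and passed (adjusted p = 0.00012), in a fit with NICD_mut 1 alone, and without NICD_mut 1 it was -0.04 (adjusted p = 0.639).

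Other genes of the induced nephron were mostly lower. Of 11 markers, 7 fell, 2 rose and 2 did not pass, with a median of -1.60. Fgf8, a growth factor of nascent nephrons, changed by -5.99 (SE 0.43) and Lhx1, a transcription factor of the renal vesicle, by -1.60 (SE 0.21), while Pax8, a transcription factor of the nephron lineage, rose by 0.80 (SE 0.15). Without NICD_wt 3, 1 of the 11 rose. Of 11 nephron progenitor markers 9 fell, 1 rose (2 without NICD_mut 2) and 1 did not pass, with a median of -3.38 and summed levels of 140 to 165 TPM in NICD_mut and 658 to 691 TPM in NICD_wt. Counts per gene do not show which cells the Wnt4 transcripts came from.

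Of the stromal ligands, Wnt5a fell and Wnt2b did not pass. Wnt5a (chromosome 14, 28504750 to 28527448, plus strand), which signals mostly without beta-catenin, was at 20.8 and 22.1 TPM in NICD_mut 1 and 2, against 26.2, 27.4 and 27.1 TPM in NICD_wt 1, 2 and 3. The groups did not overlap and the spread within each was small. Wnt5a changed by a log2 fold of -0.42 (SE 0.07; BH-adjusted p by edgeR = 0.00164), and -0.51 to -0.34 with any 1 library left out, each passing. It did not pass against a minimum fold of 1.5. An annotated antisense gene, Gm2670, overlaps Wnt5a exons on the other strand.

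Wnt2b (chromosome 3, 104945272 to 104961921, minus strand), a ligand of the outer stroma, was at 3.09 and 1.17 TPM in NICD_mut 1 and 2, against 1.87, 1.52 and 1.13 TPM in NICD_wt 1, 2 and 3. Only NICD_mut 1 was above the NICD_wt range. The log2 fold change was 0.36 (SE 0.41; BH-adjusted p by edgeR = 0.5), with 0.86 without NICD_mut 2, where it passed with a lone NICD_mut library (adjusted p = 0.0447), and -0.46 without NICD_mut 1 (adjusted p = 0.388). Of 14 stromal markers, 6 rose, 2 fell and 6 did not pass, with a median of 0.64. The receptor Pdgfrb rose by 1.19 (SE 0.15) and the neuropeptide gene Penk (-0.80, SE 0.12) and the transcription factor gene Meis2 (-0.35, SE 0.07) fell. Foxd1, a regulator of the cortical stroma, rose by 0.38 (SE 0.10) and did not pass without NICD_mut 2 (0.31) or without NICD_wt 3 (0.35).

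The remaining 4 ligands were given no source class, since their main source in the kidney is less established. Wnt16 (chromosome 6, 22288227 to 22298522, plus strand), best known for its part in cortical bone, rose most. It was at 23.5 and 28.4 TPM in NICD_mut 1 and 2, against 1.83, 3.36 and 2.77 TPM in NICD_wt 1, 2 and 3. In counts it had 413 and 496 reads in NICD_mut, against 33, 65 and 44 in NICD_wt. Both NICD_mut libraries were several times above every NICD_wt library. Wnt16 changed by a log2 fold of 3.18 (SE 0.24; BH-adjusted p by edgeR = 2.42e-05), a 9.06-fold higher level. With any 1 library left out it was 2.97 to 3.39 and passed. Without NICD_mut 1 and NICD_wt 1, the libraries with most muscle transcripts, it was 3.12, against 3.18 with all libraries.

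The protein-coding neighbours of Wnt16 and Wnt9b were compared with them. Fam3c, on the minus strand with its nearer edge 7997 bases above Wnt16, changed by 0.04 (SE 0.08; BH-adjusted p by edgeR = 0.738), and Cped1, on the plus strand 31822 bases below it, fell by 0.41 on the log2 scale (SE 0.06; BH-adjusted p by edgeR = 0.000638). Gosr2, a trafficking gene 29465 bases below Wnt9b, changed by -0.18 (SE 0.06) and did not pass without NICD_wt 1 or NICD_wt 3, and Wnt3, 24328 bases above it, had 2 and 0 counts in NICD_mut against 0 in each NICD_wt library.

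Wnt5b (chromosome 6, 119432531 to 119544347, minus strand), a close relative of Wnt5a, went the other way from it. It was at 23.4 and 27.5 TPM in NICD_mut 1 and 2, against 15.3, 15.7 and 14.03 TPM in NICD_wt 1, 2 and 3. All NICD_mut values were above all NICD_wt values. Wnt5b changed by a log2 fold of 0.64 (SE 0.12; BH-adjusted p by edgeR = 0.00186), and 0.48 to 0.78 with any 1 library left out, each passing; it did not pass against a minimum fold of 1.5.

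Wnt9a, a ligand of forming joints, and Wnt10a, a ligand of teeth and skin appendages, did not pass. Wnt9a (chromosome 11, 59306928 to 59333552, plus strand) was at 4.6 and 1.8 TPM in NICD_mut 1 and 2, against 1.8, 1.95 and 2.03 TPM in NICD_wt 1, 2 and 3. As for Wnt2b, only NICD_mut 1 stood above the rest: its CPM was 2.47 times that of NICD_mut 2 for Wnt9a and 2.52 times for Wnt2b, against 0.7 to 1.255 times for the other members with a count in both. The log2 fold change of Wnt9a was 0.58 (SE 0.36; BH-adjusted p by edgeR = 0.211), with 1.08 without NICD_mut 2, passing with a lone NICD_mut library (adjusted p = 0.00353), and -0.21 without NICD_mut 1 (adjusted p = 0.638). Urothelium markers, 7 genes, summed to 120 TPM in NICD_mut 1 and 30.8 TPM in NICD_mut 2, against 35.3 to 57.9 TPM in NICD_wt. These and the muscle and stromal transcripts of NICD_mut 1 move with these values, and their part was not tested.

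Wnt10a (chromosome 1, 74791516 to 74804179, plus strand) lies 6193 bases from Wnt6 and had few counts, with 9 and 0 reads in NICD_mut 1 and 2, against 8, 11 and 17 in NICD_wt 1, 2 and 3. The groups overlapped, and the log2 fold change was -1.52 (SE 1.01; BH-adjusted p by edgeR = 0.247). Only NICD_wt 2 and NICD_wt 3 reached the level of the count filter, so Wnt10a was tested through the group where it is high. No difference between the groups is drawn from it. NICD_mut 2, at 0 counts, was at least 4.27-fold lower than the NICD_wt mean, taking 3 counts as the floor of that library. That bound covers counting error only and describes that library alone. NICD_mut 1 (0.422 CPM) was above NICD_wt 1 (0.403 CPM).

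**Figure D2:**
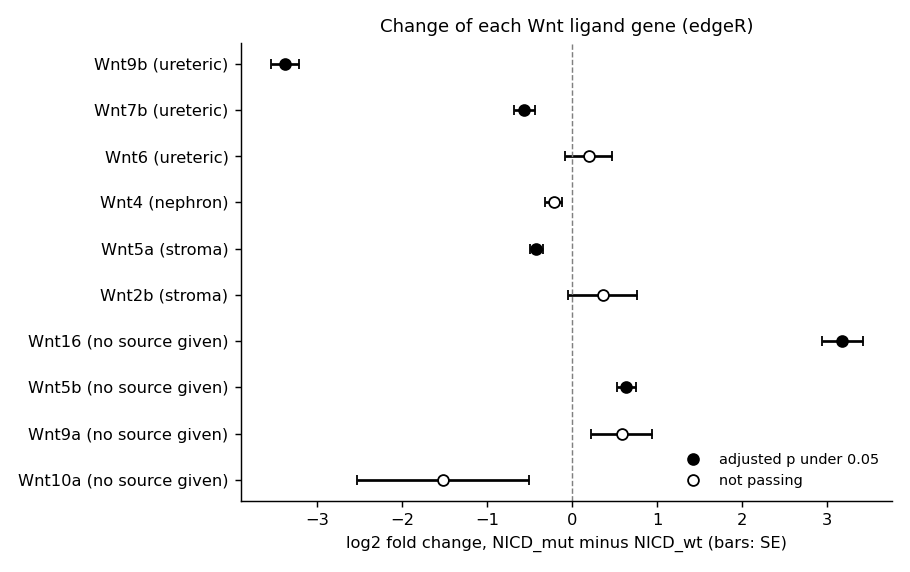
Log2 fold change of each Wnt ligand gene, NICD_mut minus NICD_wt (x axis), with its SE, by source class (y axis); filled points passed the edgeR test. Wnt9b (-3.38) and Wnt16 (3.18) lie far from 0, and the other 8 lie between -1.52 and 0.64.

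**Figure D3:**
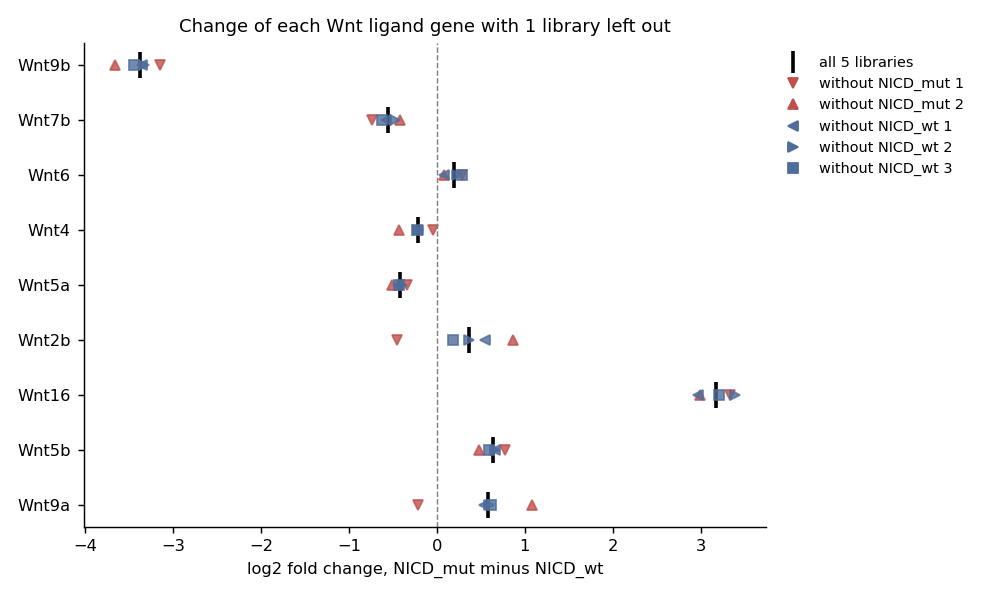
Log2 fold change, NICD_mut minus NICD_wt (x axis), of 9 Wnt ligand genes (y axis) with all 5 libraries (black bar) and with each library left out (symbols); Wnt10a is not drawn, since NICD_mut 2 had no count of it. Wnt9b stays at -3.66 to -3.14 and Wnt16 at 2.97 to 3.39, while Wnt2b and Wnt9a cross 0 when NICD_mut 1 is left out.

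The order of the 10 ligands by TPM below Wnt4 differed between the groups; Wnt11 and Wnt8b are not ranked here. In NICD_mut the order after Wnt4 was Wnt16 (26.0 ± 3.44 TPM; SD, n = 2), Wnt5b (25.4 ± 2.94), Wnt5a (21.5 ± 0.898) and Wnt7b (16.0 ± 3.07), of which Wnt16 and Wnt5b overlapped. Wnt6, Wnt9a, Wnt2b and Wnt9b followed at 1.5 to 3.22 TPM, each overlapping with the next, and Wnt10a was last at 0.21 TPM. In NICD_wt the order after Wnt4 was Wnt5a (26.9 ± 0.605 TPM; SD, n = 3), Wnt7b (21.6 ± 2.14), Wnt5b (15.01 ± 0.864) and Wnt9b (14.3 ± 1.09), of which Wnt5b and Wnt9b overlapped. Wnt16 (2.65 ± 0.772) overlapped with Wnt6 (2.58 ± 0.393), and Wnt9a overlapped with Wnt2b, with Wnt10a last at 0.573 TPM. Wnt16 was thus the second of the 10 in NICD_mut and the sixth in NICD_wt, and Wnt9b the ninth in NICD_mut and the fifth in NICD_wt.

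The summed level of the 19 mouse Wnt ligand genes overlapped between the groups, while the shares of Wnt16 and Wnt9b in it did not. Shares of other ligands did not overlap either, among them Wnt5a, Wnt5b, Wnt6, Wnt7b, Wnt11, Wnt8b and Wnt2. In CPM, the groups did not overlap for 67.2% of all tested genes. The sum was 161 and 169 TPM in NICD_mut, against 175, 181 and 168 TPM in NICD_wt. Wnt16 took 14.6 and 16.9% of it in NICD_mut, against 1.04, 1.86 and 1.65% in NICD_wt. Wnt9b took 0.79 and 1.03% in NICD_mut, against 8.45, 8.35 and 7.79% in NICD_wt. Wnt9b and Wnt11 together took 8.38 and 7.97% in NICD_mut, against 31.02, 30.05 and 28.38% in NICD_wt. Wnt4 had a share of 24.6 and 29.2% in NICD_mut and 26.2 to 28.3% in NICD_wt.

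**Figure D4:**
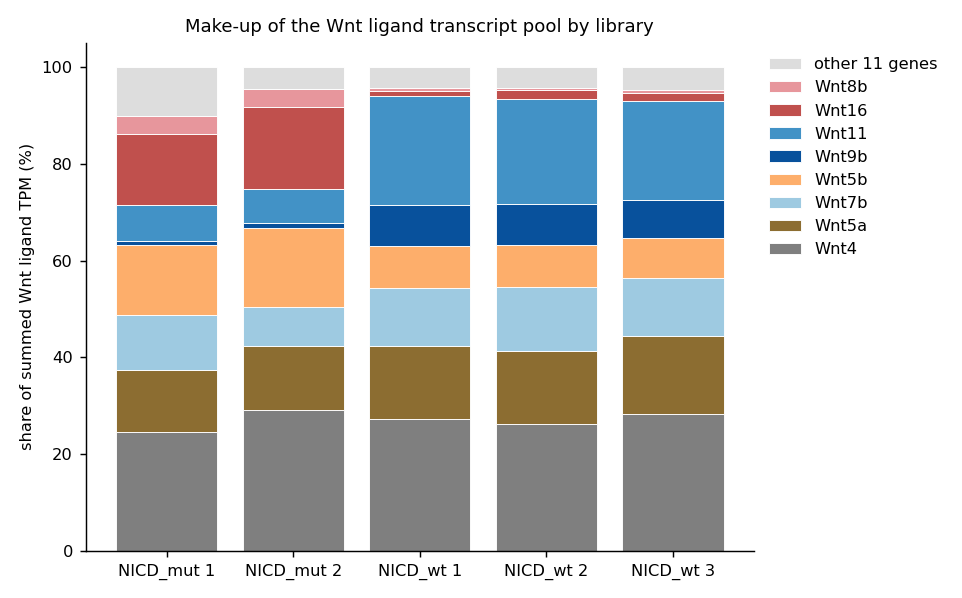
Share of the summed TPM of 19 Wnt ligand genes (y axis, in %) taken by each gene in each library (x axis, NICD_mut left, NICD_wt right). Wnt16 takes 14.6 to 16.9% in NICD_mut and 1.04 to 1.86% in NICD_wt, and Wnt9b 0.79 to 1.03% in NICD_mut and 7.79 to 8.45% in NICD_wt.

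Of the other 9 mouse Wnt ligand genes, 3 had enough counts to be tested and all passed, against 47.7% of all tested genes. Wnt8b, known from the forebrain, held 237 and 246 reads in the NICD_mut libraries, against 43, 34 and 35 in the NICD_wt libraries. Its groups did not overlap, and it rose by 2.59 (SE 0.22; BH-adjusted p by edgeR = 3.01e-05). Wnt2, a stromal and endothelial ligand, held 106 and 28 reads in the NICD_mut libraries, against 26, 25 and 18 in the NICD_wt libraries, and rose by 1.43 (SE 0.51; BH-adjusted p by edgeR = 0.046). NICD_mut 2 was only just above the NICD_wt libraries, and Wnt2 was highest in NICD_mut 1, as were Wnt2b and Wnt9a. Without NICD_mut 1 the change of Wnt2 was 0.23 (BH-adjusted p by edgeR = 0.773), and it also missed the threshold without any 1 NICD_wt library (1.35 to 1.52). Wnt11 is described with the tip markers. Each of the remaining 6 had at most 20 counts over all libraries.

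By root mean square difference of centred log2 CPM over the 5 libraries, the profiles nearest to Wnt9b among 13728 genes were those of Irx1, a transcription factor of the intermediate nephron (0.14), the solute carrier Slc5a8 (0.18) and Sostdc1, a secreted BMP and Wnt antagonist (0.20). Among those nearest to Wnt16 were Chst9, a sulfotransferase (0.13), and Myo7b, a brush border myosin (0.21). Those nearest to Wnt5a were Eif2b2 (0.01), Uqcrfs1 and Slc25a13 (both 0.02), where a small change leaves many genes alike. Irx1 changed by -3.38 (SE 0.13) and Myo7b by 2.92 (SE 0.14). With 2 groups in 5 libraries, genes with a like size of change lie near each other by this measure.

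Genes that make and release Wnt proteins were measured in the same libraries, where 23% of all tested genes were higher and 24.8% lower. Wls, the carrier that takes Wnt proteins to the cell surface, was at 143 and 157 TPM in NICD_mut, against 86.5, 89.4 and 88.7 TPM in NICD_wt. All NICD_mut values were above all NICD_wt values. Wls changed by a log2 fold of 0.64 (SE 0.07; BH-adjusted p by edgeR = 0.000126). Of 8 genes of Wnt acylation, export and recycling, Wls rose, the cargo receptor Tmed2 fell (-0.32, SE 0.05) and 6 did not pass, among them the retromer subunit Vps35 (0.15, SE 0.06; 0.21 and passing without NICD_mut 1) and Porcn, the acyltransferase that modifies Wnt proteins (0.08, SE 0.20). The median was 0.06, and 3 rose without NICD_mut 1, against 2 by DESeq2.

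Receptors went both ways. Of 16 receptors and co-receptors, 6 rose, 4 fell and 6 did not pass, with a median of 0.04. Among all tested genes 23% rose and 24.8% fell. Fzd10 rose most, by 1.49 (SE 0.25), at 34.8 and 54.8 TPM in NICD_mut against 13.6, 17.1 and 13.3 TPM in NICD_wt. Of the ROR co-receptors, through which Wnt5a signals, Ror1 rose by 0.62 (SE 0.08) and Ror2 fell (-0.36, SE 0.13). Ror2 passed without NICD_mut 1 (-0.58) and missed the threshold without any other single library (-0.42 to -0.18). The receptor gene Fzd6 rose by 0.51 (SE 0.09), whereas the Wnt receptor Ryk (-0.50, SE 0.06) and Fzd7 (-0.38, SE 0.06) fell. The counts of receptors stayed within 1.5 times with any library left out.

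Canonical Wnt response genes were lower or did not pass. Of 10, 5 fell and 5 did not pass by edgeR, with a median of -0.63, where 24.8% of all tested genes fell. Axin2, a feedback inhibitor that beta-catenin induces in many tissues, was at 13.5 and 12.8 TPM in NICD_mut, against 19.0, 18.3 and 20.1 TPM in NICD_wt. Its groups did not overlap and it changed by -0.66 (SE 0.08). Lef1 (-1.40, SE 0.16), Tcf7 (-0.64, SE 0.09), Lgr5 (-2.10, SE 0.25) and Sp5 (-2.38, SE 0.29) fell as well; Tcf7 did not pass by limma on log2(TPM + 1) (-1.46, adjusted p = 0.136). By limma on log2(TPM + 1), and without NICD_mut 2, 1 rose. Of 15 intracellular pathway genes, 3 rose, 2 fell and 10 did not pass, with a median of -0.02; 5 fell without NICD_mut 2, and 1 without any other single library. The beta-catenin cofactor Bcl9l (0.75, SE 0.06), the TCF factor Tcf7l2 (0.46, SE 0.09) and the Dishevelled gene Dvl3 (0.24, SE 0.06; not passing without NICD_wt 3) rose. The kinase gene Gsk3a fell (-0.22, SE 0.06), but not by limma on log2(TPM + 1) (adjusted p = 0.151).

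Secreted Wnt inhibitors, R-spondins and their partners went both ways. Of 20, 18 were tested, 5 rose, 4 fell and 9 did not pass, with a median of -0.01. Among all tested genes 23% rose and 24.8% fell. Dkk3, a Dickkopf-family glycoprotein, rose by 3.0 (SE 0.14), the Wnt deacylase Notum by 0.73 (SE 0.14) and the Dickkopf receptor Kremen1 by 0.39 (SE 0.07), whereas the LRP inhibitor Dkk1 fell (-2.23, SE 0.14). The number that fell was 1 without NICD_wt 1 and 2 without NICD_wt 2.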

How the data were processed

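The authors deposited estimated counts per gene symbol, as whole numbers, and TPM for the same 5 libraries. RSEM and Bowtie2 with mm10 are named in the submitters' processing notes; their versions, the annotation and how strand was treated were not given in the sources used here. Columns carry the sample titles and were matched on them. Genes with low counts were removed by filterByExpr, leaving 15885 of 32793 genes. It asked for a CPM matching 10 counts at the median library size, and for 15 counts in total. That CPM had to be met in as many libraries, of any group, as the smaller group holds. Genes kept were scaled with TMM and tested with edgeR 4.0.16 (quasi-likelihood, robust) in R 4.3.3, with group as the only term. Benjamini-Hochberg adjustment ran over all tested genes and the threshold was 0.05. SE is the log2 fold change divided by the square root of F. The tests were first run on simulated data. TPM served for levels, their order and their sums, CPM for levels of 1 gene and for ratios of members.

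The members, the gene lists, their source classes and the alternatives were chosen with earlier results of these data known. The text names every member, the strongest genes of the pathway lists, and the 3 nearest profiles to the member with the largest passing change in each source class, of which 1 is not reported here; further pathway genes and marker genes were chosen after their values were seen. Ratios of members used CPM + 0.1. Coordinates are from GENCODE M21 (mm10, 1-based). Alternatives were DESeq2 1.42.0 and its size factors, library size alone, other filters, limma 3.58.1 on counts and on log2 TPM, a minimum fold, a replicate block and libraries left out. Figures used matplotlib 3.10.9.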

Additional observations from a re-analysis of the deposited data

How the results depend on the processing

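Wnt9b and Wnt16 kept their direction and passed in all 17 alternatives, at -3.66 to -2.62 and 2.90 to 3.39 log2. Of 7583 genes passing, 1695 passed against a minimum fold of 1.5 (998 higher, 697 lower), as did 2 of the 5 Wnt ligand genes (1 higher, 1 lower). With libraries left out, 5 to 8 ligand genes passed, 2 to 4 higher and 3 to 4 lower. By limma on log2(TPM + 1) with no filter, 2606 genes were lower, and 4 ligand genes passed, against 32.9% of all genes tested there. The share of calls that were higher was 48.1% on counts and 60.7% by limma on log2(TPM + 1), where the median of all genes was 0.11 log2 in place of 0.01; none of the 9 members with a value by both changed direction. Reversed directions came with NICD_mut 1 left out, alone and then with NICD_wt 1: Wnt2b at -0.46 and -0.28, and Wnt9a at -0.21 and -0.26; without NICD_mut 2 they were at 0.86 and 1.08. The ratio of Wnt5a to Wnt2b differed by -1.39 to 0.068 over the libraries left out. The cause was not tested. Fam3c was at -0.07 without NICD_mut 1. Wnt10a had no value with a stricter filter, by limma on log2 TPM with a filter, or without NICD_wt 2 or NICD_wt 3, and had one in 12 of 17 alternatives. With replicate number as a block, 5535 genes (34.8% of all tested) and 5 ligand genes passed. Wnt2, Ror2, Foxd1, Dvl3, Gsk3a and Gosr2 did not, and 1 Wnt modulator and no intracellular pathway gene fell. The numbers are not said to pair animals. Deviations of same-numbered libraries correlated at 0.33 and 0.15 across genes, against 0.23 for NICD_mut 2 with NICD_wt 3. With 2 NICD_mut libraries the deviation of 1 mirrors that of the other, so these values cannot show whether the numbers pair animals. Fits without a NICD_mut library keep 1 and assume that it varies like the others. Depth limits Wnt10a and Wnt6.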
